A study of Mus musculus with 19 samples.

Results

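MrgprA3+ sensory neurons sorted from the dorsal root ganglia of mice with allergic contact dermatitis (ACD) were compared with the same neurons of control mice. The comparison used 9 of the series' 19 RNA-seq libraries, chosen by their labels alone: 4 from MrgprA3+ neurons of ACD mice (replicates 1, 2, 4 and 5) and 5 from MrgprA3+ neurons of control mice. Replicate 3 of the ACD group was not analysed here for these neurons. All animals were male C57BL/6 mice of 2 months whose MrgprA3+ neurons carried green fluorescent protein (GFP), in both groups alike. The reporter allele is not named in the labels. ACD mice received squaric acid dibutylester (SADBE), a contact sensitiser, at 0.5% in acetone, 25 µl per application. It was painted daily on the shaved abdomen on days 1 to 3 and on the lower back on days 8 to 12, and controls received acetone alone. On day 13 scratching was recorded for 60 min and the 16 ganglia T11 to L6, whose fibres reach the treated skin, were taken from every one of 5 mice per treatment. Cells were sorted by GFP, or for the MrgprA3- population by a gate on cells shaped like the GFP+ ones. A library is 1 population of 1 mouse, at a single time point, so the p-values below measure the spread between mice.

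Dorsal root ganglion neurons send an axon to the skin and another to the spinal cord, and a small unmyelinated subset of them carries itch. MrgprA3 is a G protein-coupled receptor of the Mas-related family that responds to chloroquine. The neurons that express it are known as itch-selective and belong to a class named NP2, for non-peptidergic. In contact dermatitis, T cells respond to a hapten bound to skin proteins, and the inflamed skin releases cytokines, proteases and amines that sensory endings can detect. The comparison asks whether the messenger RNA of the itch neurons differs after such inflammation.

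The sorted libraries carried the transcripts that define the labelled neurons. Mrgpra3 read 948 to 1446 FPKM (fragments per kilobase of transcript, scaled to the mapped fragments of each library, as deposited) in the control libraries and 836 to 1079 in the ACD libraries, and averaged 20.2 FPKM in the MrgprA3- control libraries. All 12 listed NP2 markers averaged above 1 FPKM. The table holds 19 macrophage and leukocyte markers, of which 17 averaged under 1 FPKM. Among these 17, Tyrobp and C1qa were listed at 0 in all 9 libraries. The other 2 markers were present: Cd8a averaged 5.38 FPKM in control and 4.75 in ACD libraries, and Laptm5 6.15 and 5.52 FPKM. The summed level of the 19 markers was 6.69 to 18.2 FPKM in ACD and 9.31 to 19.1 in control libraries. Satellite glia markers summed to 388 to 531 FPKM in ACD and 290 to 484 in control libraries, and Schwann cell markers to 1573 to 1676 and 1405 to 1686 FPKM. Estimated depth was 14100000 to 16100000 fragments in ACD and 10200000 to 15300000 fragments in control libraries. The number of genes above 0 averaged 14016 (SD 363, n = 4) in ACD and 13905 (SD 322, n = 5) in control libraries, with an exact two-sided permutation p of 0.619. In bulk samples of this kind, fewer cells expressing a gene and less RNA per cell cannot be told apart.

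No gene passed the threshold of an adjusted p of 0.05 for ACD against control in MrgprA3+ neurons. Of 18666 genes measured, 10615 reached 1 FPKM in 4 or more of the 9 libraries and were tested with limma on log2(FPKM + 1), with Benjamini-Hochberg adjustment, and 0 of them (0.0%) were called. The smallest adjusted p was 0.146, for Serpinb1a. At an unadjusted p under 0.05 there were 591 genes (5.57%), of which 322 (3.03%) were higher and 269 (2.53%) lower in ACD. In 173 genes (1.63%) the 4 ACD values did not overlap the 5 control values, 90 (0.848%) with ACD higher and 83 (0.782%) with ACD lower. The median difference over all tested genes was -0.02. A fit to all 19 libraries of both populations, with 1 pooled spread and 11996 genes tested, called 42 genes. That spread was taken in part from MrgprA3- libraries, which varied less (values below). It is therefore not the spread between MrgprA3+ libraries alone.

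The size of difference that these libraries could exclude depended on a gene's level. For 6246 of the tested genes (58.8%) the 95% interval of the difference lay within 1 log2 unit of 0, that is within a doubling or halving on the log2(FPKM + 1) scale, which understates the change of genes at low FPKM. Of the 846 genes averaging at least 100 FPKM 98.8% had such an interval, with a median half-width of 0.29, against 23.5% of the 3627 genes under 5 FPKM, with a median half-width of 0.87. Values of a gene varied more between MrgprA3+ than between MrgprA3- libraries. The median SD of log2(FPKM + 1) was 0.43 among control and 0.40 among ACD libraries of MrgprA3+ neurons, and 0.20 in both MrgprA3- groups.

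**Figure D1:**
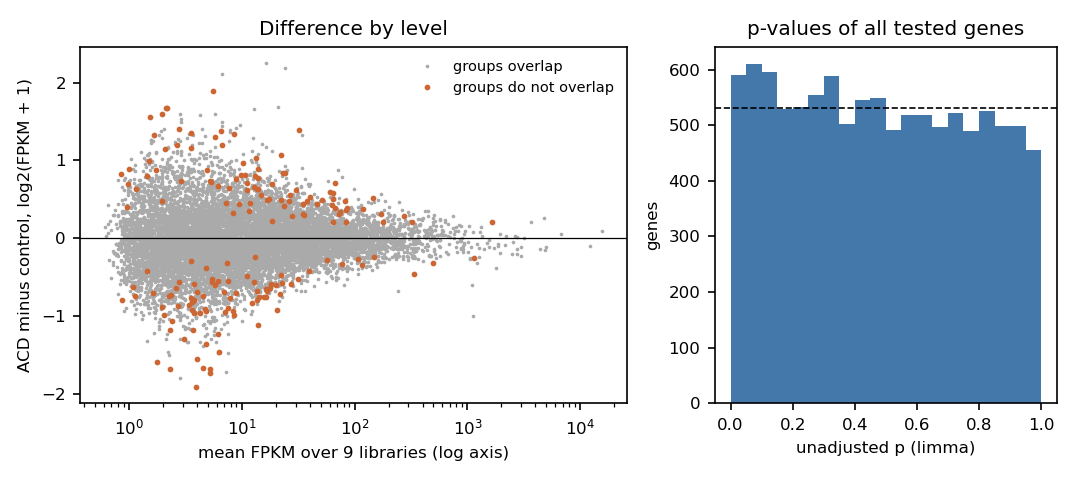
Left, difference of mean log2(FPKM + 1), ACD minus control, against mean FPKM over the 9 MrgprA3+ libraries on a log axis, 1 point per tested gene (10615), with the 173 genes whose groups do not overlap in orange. Right, histogram of the unadjusted limma p-values of the same genes in steps of 0.05, with a dashed line at the height of an even spread. The spread of differences narrows with level, and the p-values run close to the even line.

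Among the Mas-related itch receptors, no member differed beyond the spread between mice after adjustment. Of 18 listed members 14 were tested, 0 passed the threshold, and their differences ran from -0.38 (Mrgpra2a) to 0.38 (Mrgprb4) with a median of -0.01, next to -0.02 over all tested genes. Of the 14 intervals 13 lay within 1 log2 unit of 0. These receptors form a family of near-identical copies, so reads may have been split between them and each receptor's own value is uncertain. Mrgpra3, the chloroquine receptor, read 1190.4, 1065, 948, 1446 and 1007 FPKM in the 5 control libraries and 917, 928, 1079 and 836 in the 4 ACD libraries. Its ACD values lay in and below the lower part of the control range, and the groups overlapped. The means were 1131 FPKM (SD 197, n = 5) and 940.1 FPKM (SD 101, n = 4). The difference of -0.26 in log2(FPKM + 1) had a 95% interval of -0.50 to -0.01 and an adjusted p of 0.868.

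Mrgprb4, a relative that marks fibres responding to stroking of hairy skin, read 107, 38.7, 79.1, 56.3 and 26.9 FPKM in control and 33.3, 69.8, 108 and 105 FPKM in ACD libraries, a difference of 0.38 with an interval of -0.51 to 1.27. The ranges of the groups were almost the same. Mrgprx1, an itch receptor activated by proenkephalin fragments, averaged 32.5 FPKM (SD 8.65, n = 5) in control and 30.7 FPKM (SD 4.68, n = 4) in ACD libraries, a difference of -0.06 with an interval of -0.51 to 0.40. Mrgpra2b averaged 153 and 133 FPKM, a difference of -0.18 with an interval of -0.50 to 0.13. Mrgprd, the receptor of the neighbouring NP1 class, read 30.7 to 54.5 FPKM in 4 control libraries and 174 in control replicate 5, against 41.7 to 60.8 FPKM in ACD libraries.

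No receptor or channel downstream of or parallel to the Mas-related family passed the threshold, and of the tested pruritogen receptors and TRP channels the groups overlapped for all but Ednrb. Hrh1, the histamine receptor of itch fibres, read 23.7, 10.7, 36.9, 17.2 and 15.5 FPKM in control and 23.7, 26.6, 20.7 and 19.6 FPKM in ACD libraries, and all ACD values fell inside the control range. Its difference was 0.22 with an interval of -0.38 to 0.83. Trpa1, the irritant-gated channel needed for chloroquine itch, averaged 17.2 FPKM in control and 19.1 in ACD libraries, a difference of 0.16 with an interval of -0.39 to 0.71. Trpv1, the capsaicin- and heat-gated channel, averaged 133 and 143 FPKM, a difference of 0.14 with an interval of -0.23 to 0.51. Of 11 tested TRP channels 0 had an unadjusted p under 0.05, where the share over all genes was 5.57%. F2rl2 (a protease-activated receptor) averaged 240.5 and 249.5 FPKM, with an interval of -0.20 to 0.30. Of the 20 other pruritogen receptors tested, Ednrb, an endothelin receptor, was the 1 with an unadjusted p under 0.05. It read 3.91, 4.77, 6.16, 3.61 and 4.93 FPKM in control and 2.67, 0.28, 2.89 and 3.26 FPKM in ACD libraries. The ACD values lay below every control value, and the adjusted p was 0.868. Ednrb is also a satellite glia marker. Of the 8 tested markers in that list 0 were higher and 2, Ednrb and Glul, lower at an unadjusted p under 0.05. The shares over all genes were 3.03% and 2.53%. The list's median difference was 0.14, and the part of glial RNA in the level of Ednrb was not tested.

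**Figure D2:**
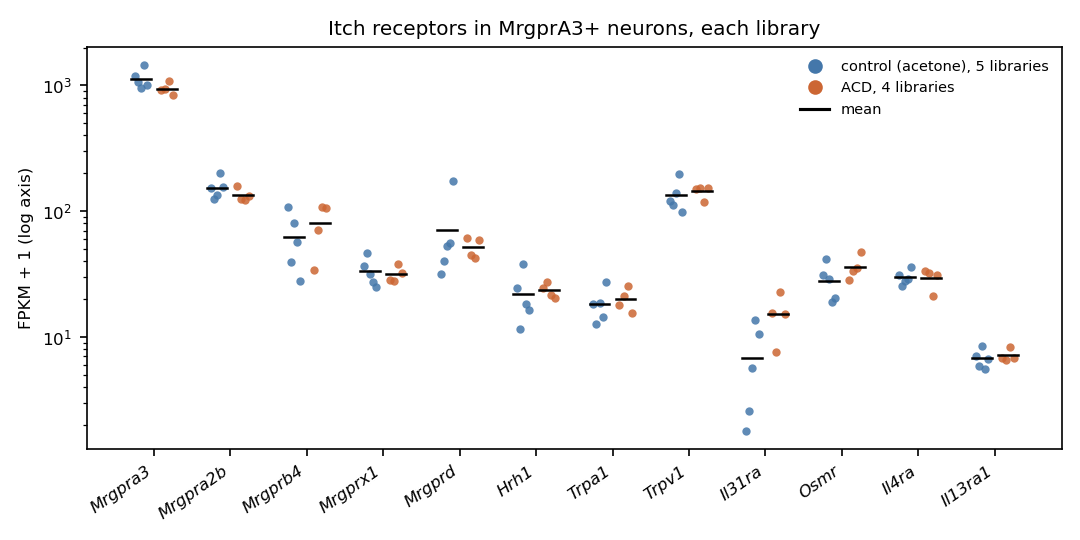
FPKM + 1 on a log axis of 12 receptors and channels in each MrgprA3+ library, with control libraries (5) in blue, ACD libraries (4) in orange and group means as black lines. The groups overlap for every gene shown, with Mrgpra3 at 836 to 1446 FPKM the highest and Il31ra the most spread.

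Receptors of type 2 cytokines and alarmins, the immune signals most tied to dermatitis itch, were compared as a list of 21 tested genes with their signalling partners. No member passed the threshold, 4 were higher in ACD at an unadjusted p under 0.05 and 0 were lower, against 3.03% and 2.53% over all genes. The list's median difference was 0.07. Il31ra, a subunit of the receptor for the itch cytokine interleukin 31, read 0.8, 1.58, 4.68, 12.6 and 9.52 FPKM in control and 14.4, 6.65, 21.9 and 14.1 FPKM in ACD libraries. In all, 3 of the ACD values exceeded every control value and replicate 2 did not, and the control libraries themselves spread from 0.8 to 12.6 FPKM. The difference was 1.45 with an interval of 0.38 to 2.53, an unadjusted p of 0.0109 and an adjusted p of 0.868. Osmr, the other subunit of that receptor, averaged 27.1 FPKM (SD 9.1, n = 5) in control and 35.2 FPKM (SD 7.77, n = 4) in ACD libraries, a difference of 0.40 with an interval of -0.11 to 0.92.

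Stat3, the transcription factor that such receptors activate, read 137, 116, 145, 159 and 145 FPKM in control and 171, 131, 204 and 206 FPKM in ACD libraries. The difference was 0.33, and ACD replicate 2 lay within the control range. Socs3, an inhibitor made in response to STAT3, read 7.06, 11.6, 6.57, 1.5 and 5.07 FPKM in control and 11.8, 17.0, 6.76 and 10.3 FPKM in ACD libraries, a difference of 0.87. Crlf2, a subunit of the receptor for the alarmin TSLP, averaged 0.97 FPKM in control and 2.40 in ACD libraries. All 3 had unadjusted p-values between 0.0436 and 0.0484 and an adjusted p of 0.868. By contrast Il4ra, the shared receptor of interleukins 4 and 13, averaged 28.8 FPKM (SD 3.91, n = 5) and 28.4 FPKM (SD 5.57, n = 4), a difference of -0.03 with an interval of -0.47 to 0.40. Il13ra1 averaged 5.75 and 6.12 FPKM, with an interval of -0.53 to 0.70. Stat6, which acts downstream of Il4ra, averaged 50.1 and 45.2 FPKM, with an interval of -0.58 to 0.25.

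Il31ra and Osmr also mark another class of itch neuron, NP3, whose peptides are Nppb and Sst. The 8 tested of 10 listed NP3 markers had differences of 0.30 (Jak1) to 1.45 (Il31ra) with a median of 0.71, all higher in ACD, and 2 of them, Il31ra and Sst, had an unadjusted p under 0.05, where 3.03% of all tested genes were higher. Without single libraries the median lay between 0.49 and 0.88. With no filter on low values, which lets in the other listed markers, it was 0.55. Sst, the peptide somatostatin, read 0.11, 0, 2.07, 0.46 and 0.92 FPKM in control and 1.96, 3.53, 2.69 and 0.75 FPKM in ACD libraries, against a mean of 13.99 FPKM in MrgprA3- control libraries. Both MrgprA3+ groups were thus far below the MrgprA3- level. Sst met the filter of 1 FPKM in 4 libraries mostly through ACD libraries, which favours a higher ACD value. The summed level of the NP3 markers was 181 to 277 FPKM in ACD and 139 to 233 in control libraries. Markers of large diameter neurons, which carry touch and proprioception, had differences in both directions, from -0.81 to 1.32, with a median of 0.47. Of 10 tested members 4 were higher in ACD at an unadjusted p under 0.05 (Ldhb, Spp1, Cntn1 and Kcna1) and 0 were lower, against 3.03% and 2.53% over all genes. Cntn1, an axonal adhesion protein, read 1.25, 0.32, 2.18, 1.19 and 1.32 FPKM in control and 4.65, 1.66, 3.43 and 3.65 FPKM in ACD libraries, against 30.4 FPKM in MrgprA3- control libraries. Spp1 read 0.05 to 0.2 FPKM in the control libraries other than replicate 3. It met the filter mostly through ACD libraries, which favours a higher ACD value. Of the 16 listed large neuron markers 5 averaged under 1 FPKM, and with no filter on low values the list's median was 0.34. The large neuron markers summed to 166 to 242 FPKM in ACD and 130 to 205 in control libraries. The 6 tested markers of low-threshold C fibres had differences of -0.34 to 1.13 with a median of 0.09, which lay between -0.15 and 0.36 without single libraries. The highest of these differences was that of Th, an enzyme of catecholamine synthesis, which averaged 12.8 FPKM in control and 25.8 in ACD libraries, against 183 FPKM in MrgprA3- control libraries. The part of RNA from other neurons in the results for single genes below was not tested, and the MrgprA3- level is given beside the genes it may touch.

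The gene with the smallest p-value was Serpinb1a, which encodes an intracellular inhibitor of neutrophil elastase and related serine proteases. It read 13.1, 28.2, 16.4, 13.7 and 21.45 FPKM in the control libraries and 44.1, 59.2, 42.4 and 49.8 FPKM in the ACD libraries. Every ACD library lay above every control library. The means were 18.6 FPKM (SD 6.32, n = 5) and 48.9 FPKM (SD 7.56, n = 4), and the difference of 1.39 in log2(FPKM + 1) had an interval of 0.90 to 1.89 and an adjusted p of 0.146. Without control replicate 2, its highest control library, the adjusted p was 0.0226, without each other library it lay between 0.187 and 0.528, and with libraries weighted by their quality it was 0.0477. In MrgprA3- neurons the same gene averaged 68.7 FPKM in control and 109 FPKM in ACD libraries, a difference of 0.70 with an unadjusted p of 0.00103 and an adjusted p of 0.342.

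S100a16, a calcium-binding protein of the S100 family, had the second smallest p-value. It read 1.5, 3.99, 0.96, 1.92 and 1.55 FPKM in control and 5.41, 9.41, 11.8 and 13.5 FPKM in ACD libraries. The groups did not overlap, and both lay below the 22.8 FPKM of MrgprA3- control libraries. The difference was 1.90 with an interval of 1.11 to 2.68 and an adjusted p of 0.407. Vat1l, a relative of a synaptic vesicle membrane protein, had a small spread in both groups. It read 130.03, 124, 120.5, 115 and 125 FPKM in control and 189.98, 179, 169.5 and 169 FPKM in ACD libraries. The narrow groups were separated by a gap wider than the range of either group, and the difference was 0.52 with an interval of 0.27 to 0.77 and an adjusted p of 0.644. Etv5, an ETS transcription factor, averaged 52.6 FPKM (SD 9.82, n = 5) in control and 86.5 FPKM (SD 14.8, n = 4) in ACD libraries without overlap, a difference of 0.71 with an adjusted p of 0.698. Dusp6, a phosphatase that acts on ERK, averaged 7.29 and 13.1 FPKM without overlap, a difference of 0.82 with an adjusted p of 0.868.

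Genes of immune function included some at low level whose groups did not overlap. H2-DMa, a chaperone that loads peptides on class II MHC molecules, read 2.82, 2.48, 9.76, 5.68 and 3.89 FPKM in control and 14.9, 12.2, 14.9 and 9.81 FPKM in ACD libraries. Control replicate 3 at 9.76 FPKM came close to the lowest ACD library at 9.81, and the difference of 1.34 (interval 0.62 to 2.07) had an adjusted p of 0.698. It was the 1 member of 17 tested MHC genes with an unadjusted p under 0.05, next to 5.57% over all genes. The class I genes H2-D1 and B2m averaged 588 and 612 FPKM and 50.5 and 50.6 FPKM, with intervals of -0.20 to 0.32 and -0.56 to 0.52. Tnfrsf12a, the receptor of the cytokine TWEAK and a gene linked to axon regrowth, read 0.09 to 1.62 FPKM in control and 2.16 to 7.01 FPKM in ACD libraries. Its difference was 1.67, with an adjusted p of 0.644. The ACD libraries alone were enough for Tnfrsf12a to meet the filter of 1 FPKM in 4 libraries, which favours a higher ACD value. Ngfr, the low-affinity neurotrophin receptor, read 58.0, 49.8, 53.7, 61.8 and 51.2 FPKM in control and 70.6, 70.6, 72.8 and 82.8 FPKM in ACD libraries. The groups did not overlap, and the difference was 0.43 with an adjusted p of 0.868. Schwann cells express Ngfr too, and 2 of 8 tested Schwann cell markers, Ngfr and S100b, were higher in ACD at an unadjusted p under 0.05, against 3.03% over all genes. The differences of the 8 ran from -0.35 to 0.85 with a median of 0.37.

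Several genes had ACD values below every control value. Zfp277, a zinc finger protein, read 26.9, 27.5, 25.9, 21.4 and 29.1 FPKM in control and 13.2, 16.6, 10.9 and 13.1 FPKM in ACD libraries. The difference of -0.92 (interval -1.38 to -0.46) had an adjusted p of 0.644. Cryl1, an enzyme of sugar acid metabolism, averaged 18.99 FPKM (SD 7.4, n = 5) in control and 7.98 FPKM (SD 1.7, n = 4) in ACD libraries, a difference of -1.11 with an adjusted p of 0.698. Npl, a lyase that breaks down sialic acid, read 5.05, 8.89, 3.69, 8.17 and 5.26 FPKM in control and 0.13, 0, 1.78 and 2.68 FPKM in ACD libraries. The difference was -1.91, and the ACD libraries themselves ranged from a listed 0 to 2.68 FPKM. Rcor1, a corepressor that silences neuronal genes with REST, read 8.45, 7.85, 4.65, 8.09 and 5.41 FPKM in control and 3.61, 0.54, 0.86 and 1.65 FPKM in ACD libraries, a difference of -1.67. Acsf3, a mitochondrial malonyl-CoA synthetase, averaged 8.09 and 1.59 FPKM, and Csad, an enzyme of taurine synthesis, 7.79 and 2.17 FPKM, with differences of -1.73 and -1.67. The adjusted p-values of these 4 genes lay between 0.644 and 0.698. Terf2, a telomere-binding protein, and Pam, the enzyme that amidates neuropeptides, had differences of -1.55 and -1.23, also without overlap. In MrgprA3- neurons the smallest unadjusted p among these genes was 0.0216, for Acsf3.

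**Figure D3:**
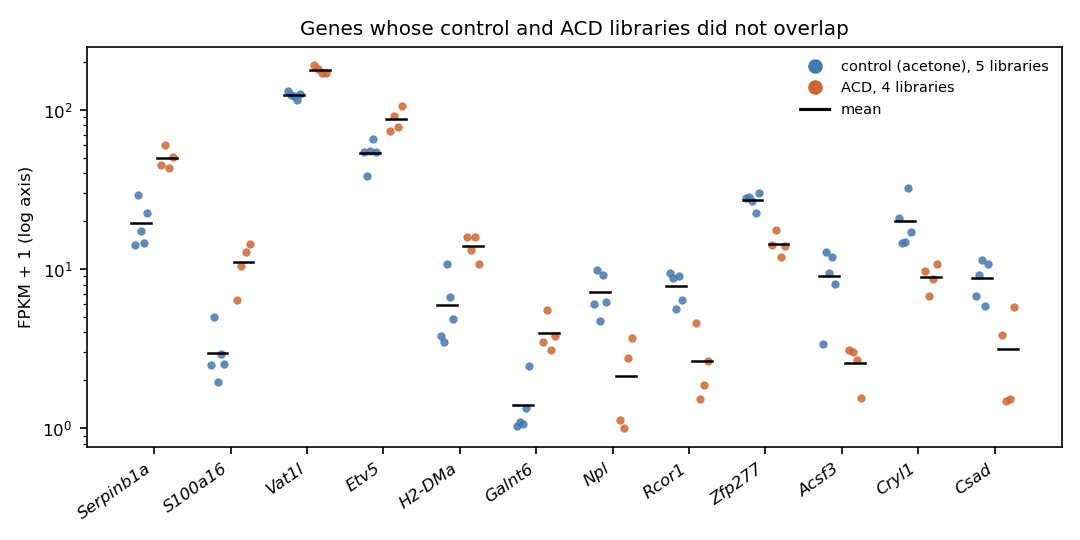
FPKM + 1 on a log axis of 12 genes in each MrgprA3+ library (control, 5 libraries, in blue; ACD, 4 libraries, in orange; group means as black lines). The genes were picked because their groups do not overlap, and none passed an adjusted p of 0.05. The groups of Vat1l are tight, with a gap wider than the range of either group. The groups of Npl and Rcor1 are low in level and spread, with a gap smaller than the range of either group.

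No channel gene that sets excitability passed the threshold. The sodium channels Scn9a, Scn10a and Scn11a, which carry the action potential of nociceptors and itch neurons, averaged 44.3, 195 and 166 FPKM in control and 38.3, 168 and 163 FPKM in ACD libraries. Their intervals ran from -0.63 to 0.25, -0.49 to 0.08 and -0.30 to 0.23, and 0 of 7 tested sodium channel subunits had an unadjusted p under 0.05. Of 34 potassium channel genes 2 were higher (Kcna1 and Kcnk1) and 2 lower (Kcnmb4 and Kcnn1) at an unadjusted p under 0.05, against 3.03% and 2.53% over all tested genes. Of 26 mechanosensitive, acid-sensing, HCN and chloride channels 2 were higher and 1 lower, and of 9 voltage-gated calcium channels 0 were higher and 1 lower. Hcn3, a pacemaker channel subunit, read 5.65, 4.92, 4.8, 7.2 and 5.74 FPKM in control and 3.3, 2.58, 2.99 and 1.17 FPKM in ACD libraries. Its groups did not overlap, and the difference of -0.96 had an adjusted p of 0.868. Cacna2d3, an auxiliary calcium channel subunit, read 2.96 to 9.06 FPKM in control and 0.92 to 2.71 FPKM in ACD libraries, a difference of -1.18. Asic3, an acid-gated channel, averaged 2.58 FPKM in control and 9.90 in ACD libraries, but ACD replicate 2 at 1.7 FPKM lay within the control range and MrgprA3- control libraries averaged 64.4 FPKM.

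Peptides, a neurotrophin and G proteins were compared next, and no member passed the threshold. Calca, the precursor of the peptide CGRP and one of the highest transcripts here, averaged 5129 FPKM (SD 531, n = 5) in control and 4613 FPKM (SD 590, n = 4) in ACD libraries, a difference of -0.16 with an interval of -0.35 to 0.04. In MrgprA3- control libraries Calca averaged 3415 FPKM, so the class name non-peptidergic does not mean that peptide transcripts were absent from MrgprA3+ libraries. Tac1, the precursor of substance P, read 93.4 to 263 FPKM in control and 111 to 220 FPKM in ACD libraries. Bdnf, a neurotrophin released by sensory neurons, read 13.6, 11.2, 15.4, 47.6 and 46.2 FPKM in control and 50.1, 48.9, 28.1 and 47.0 FPKM in ACD libraries. The control libraries fell into low and high values, and only 2 of the 4 ACD libraries exceeded them all. The difference of 0.91 had an unadjusted p of 0.0261 and an adjusted p of 0.868, and in MrgprA3- neurons Bdnf had a difference of 0.69 with an adjusted p of 0.503. Of 36 tested G protein, phospholipase and cyclase genes 1 was higher (Gnai3) and 2 lower (Gnao1 and Gnb1) at an unadjusted p under 0.05, against 3.03% and 2.53% over all genes, with a median of -0.20. Gnai3, an inhibitory alpha subunit, read 28.1, 21.0, 19.01, 21.8 and 31.95 FPKM in control and 37.5, 33.3, 39.2 and 39.0 FPKM in ACD libraries without overlap, a difference of 0.62 with an adjusted p of 0.868.

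Chemokines and interferon genes gave no called member either. Ccl2, a chemokine that attracts monocytes, read 0.71, 2.02, 0.91, 2.46 and 10.3 FPKM in control and 0.98, 0.77, 1.11 and 0.7 FPKM in ACD libraries. Control replicate 5 raised the control mean most, and control replicates 2 and 4 also lay above every ACD value. The difference was -0.81 with an interval of -1.81 to 0.20. Cxcl10 averaged 0.036 FPKM in control and was listed at 0 in every ACD library, so it was not tested. Of 30 tested interferon receptors and interferon-stimulated genes 3 were lower in ACD at an unadjusted p under 0.05 (Ifit3, Lgals3bp and Irf9) and 0 were higher, against 2.53% and 3.03% over all genes, with a list median of -0.04. Ifit3, an antiviral protein, read 32.9, 22.1, 23, 32.6 and 24.8 FPKM in control and 19.8, 18.4, 17.2 and 15.1 FPKM in ACD libraries. The groups did not overlap, and the difference of -0.58 had an adjusted p of 0.868.

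Injury and activity genes had no member past the threshold. Atf3, the standard marker of axon injury, averaged 15.4 FPKM (SD 2.56, n = 5) in control and 15.8 FPKM (SD 5.37, n = 4) in ACD libraries, a difference of -0.01 with an interval of -0.58 to 0.56. Of 27 tested injury and regeneration genes 4 were higher at an unadjusted p under 0.05 (Tubb6, Tnfrsf12a, Ngfr and Sprr1a) and 0 were lower, against 3.03% and 2.53% over all genes, with a median of 0.06. As given above, Tnfrsf12a could meet the filter through its ACD libraries alone, which limits its place among the 4. Tubb6, a beta-tubulin, read 0.65, 0.16, 1.29, 1.62 and 6.0 FPKM in control and 14.4, 16.2, 1.19 and 19.4 FPKM in ACD libraries. ACD replicate 4 lay among the controls, and the difference of 2.12 had an adjusted p of 0.796. The immediate early gene Fos averaged 42.9 FPKM in control and 32.0 in ACD libraries, a difference of -0.46 with an interval of -0.94 to 0.02.

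Of the 20 tested aminoacyl-tRNA synthetases, which charge tRNAs for translation, 6 were higher in ACD at an unadjusted p under 0.05 and 0 were lower, against 3.03% and 2.53% over all genes, while the list's median was 0.07. In 3 of them, Qars, Aars and Eprs, the groups did not overlap and ACD was higher, against 0.848% over all genes. Qars, the glutamine enzyme, read 16.9, 13.6, 19.99, 11.9 and 23.6 FPKM in control and 25.3, 34.8, 30.6 and 32.2 FPKM in ACD libraries, a difference of 0.83 with an adjusted p of 0.796. Aars, the alanine enzyme, averaged 52.8 and 79.1 FPKM, a difference of 0.58 with an adjusted p of 0.806. The list was drawn up with the value of Qars already known. The 76 ribosomal protein genes had a median difference of -0.23, with 3 members lower and 0 higher at an unadjusted p under 0.05. Without ACD replicate 5 that median was -0.03. For the 75 nuclear genes of oxidative phosphorylation the median was -0.11, and without the same library 0.04. Cox6a1, a subunit of cytochrome c oxidase, averaged 1285 FPKM (SD 280, n = 5) in control and 849 FPKM (SD 210, n = 4) in ACD libraries, a difference of -0.61 with an adjusted p of 0.796.

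**Figure D4:**
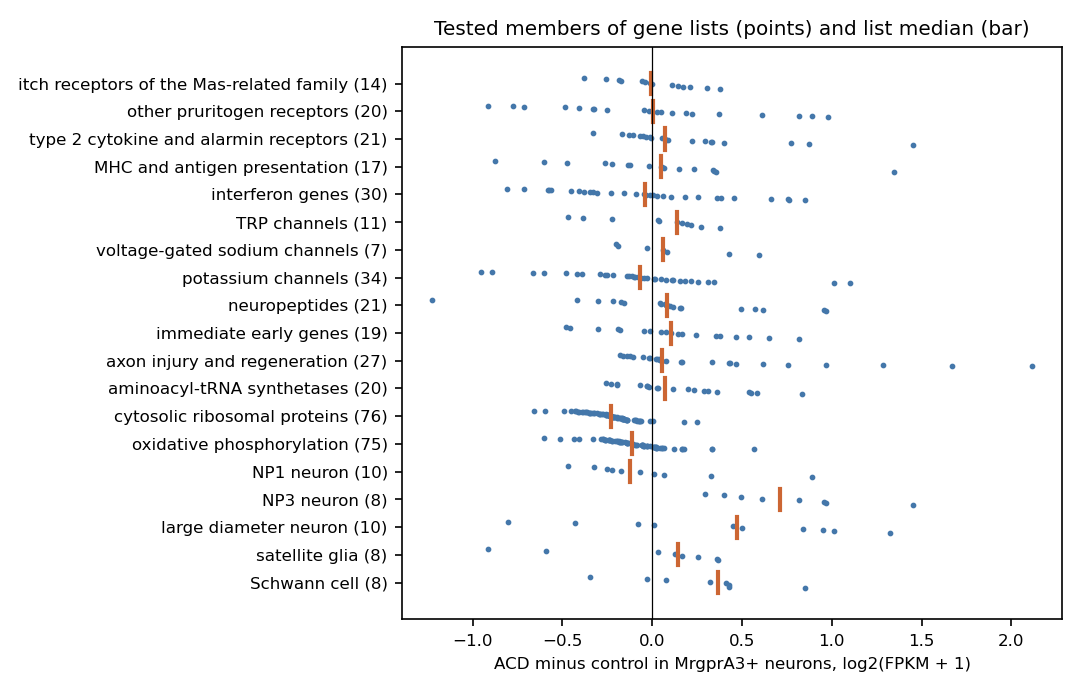
Difference of mean log2(FPKM + 1), ACD minus control in MrgprA3+ neurons, for each tested member (blue points, number in parentheses) of 19 gene lists, with list medians as orange bars. The medians lie between -0.23 (ribosomal proteins) and 0.71 (NP3 neuron markers), and the Mas-related receptors centre on -0.01.

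The dermatitis effect in MrgprA3+ neurons was then set beside that in MrgprA3- neurons, which included 1 more ACD mouse, replicate 3. In MrgprA3- neurons 13 of 11996 genes (0.108%) passed the threshold, 12 higher and 1 lower in ACD, with 1012 genes (8.44%) at an unadjusted p under 0.05 and 170 (1.42%) whose groups did not overlap. These 13 genes were named here after their values were seen. Of the 13, 12 were tested in MrgprA3+ neurons, where 6 were higher in ACD at an unadjusted p under 0.05 (Vat1l, Galnt6, Tifa, Steap1, Serpina3i and Fam210b) and 0 were lower, against 3.03% and 2.53% of all tested genes. None of the 6 passed adjustment in MrgprA3+ neurons, with adjusted p-values of 0.644 to 0.868. The mice of the 9 MrgprA3+ libraries also gave MrgprA3- libraries, so these are separate libraries but not separate animals, and ACD replicate 3 entered the MrgprA3- comparison alone. When single MrgprA3- libraries were left out, between 4 (without ACD replicate 3) and 13 genes passed there. Fam210b, Galnt6, Tifa and Racgap1 were among them each time, and Racgap1 was not among the 6 genes above. With replicate numbers as blocks, only Accsl and Fam210b passed in MrgprA3- neurons.

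Galnt6, an enzyme that starts O-linked glycosylation, read 0.03, 0.1, 0.07, 0.35 and 1.46 FPKM in MrgprA3+ control libraries and 2.49, 4.54, 2.11 and 2.81 FPKM in ACD libraries. The groups did not overlap, and the difference was 1.56 in MrgprA3+ and 1.23 in MrgprA3- neurons, where the adjusted p was 0.00918. In MrgprA3+ neurons Galnt6 met the filter of 1 FPKM in 4 libraries through the ACD libraries. That favours a higher ACD value and limits its place among the 6 genes. Tifa, an adaptor that links receptors to NF-kappaB, read 12.3, 27.5, 11.1, 18.0 and 16.5 FPKM in MrgprA3+ control libraries and 37.9, 42.2, 20.8 and 30.5 FPKM in ACD libraries. Only ACD replicate 4 fell below the highest control library. The difference was 0.93 in MrgprA3+ and 1.03 in MrgprA3- neurons. Vat1l, described above, had a difference of 0.45 in MrgprA3- neurons with an adjusted p of 0.039. Serpina3i, a secreted serine protease inhibitor from a cluster of close copies among which reads may be split, averaged 10.6 FPKM (SD 6.39, n = 5) in control and 17.2 FPKM (SD 3.37, n = 4) in ACD libraries of MrgprA3+ neurons, a difference of 0.77 next to 0.90 in MrgprA3- neurons. Fam210b, a mitochondrial protein, had differences of 1.18 and 1.08, and Steap1, a membrane protein of the STEAP family, of 1.45 and 1.38. Zfp772, a zinc finger protein, went apart: it was higher in ACD in MrgprA3- neurons (0.91, adjusted p 0.0383) and had a difference of -0.57 in MrgprA3+ neurons with an interval of -1.59 to 0.44.

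The promoters of these shared genes are shown for Serpina3i and Vat1l, 1 with and 1 without a match to a STAT-type motif. The motif was looked for because Stat3 and Socs3 had unadjusted limma p-values just under 0.05, though neither passed adjustment. A role of STAT3 was not tested. Sequences are from RefSeq (GRCm38.p6), 250 bases before the gene's start, on the plus strand at chr12:104262872-104263121 and chr8:114205390-114205639, and capitals mark the match.
Serpina3i: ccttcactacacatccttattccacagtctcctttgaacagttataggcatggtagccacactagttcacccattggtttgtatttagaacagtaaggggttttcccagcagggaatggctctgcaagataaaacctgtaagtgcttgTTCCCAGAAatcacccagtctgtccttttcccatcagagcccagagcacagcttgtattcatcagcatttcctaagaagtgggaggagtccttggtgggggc
Vat1l: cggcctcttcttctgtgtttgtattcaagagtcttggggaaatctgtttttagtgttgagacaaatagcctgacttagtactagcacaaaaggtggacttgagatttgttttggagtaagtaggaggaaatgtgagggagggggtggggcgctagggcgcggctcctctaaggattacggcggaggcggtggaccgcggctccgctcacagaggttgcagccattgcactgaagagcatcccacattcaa
The motif TTCNNNGAA, which reads the same on both strands, occurred once in the Serpina3i window, starting 102 bases before the gene's start, and in none of the other 7 windows of the 6 genes. It occurred in 7.02% of 32851 promoter windows of that length. The AP-1-type motif TGANTCA (6.75% of windows) and the cAMP response motif TGACGTCA (1.55%) occurred in none of the 8 windows, searched on both strands. A match describes these letters and not binding.

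**Figure D5:**
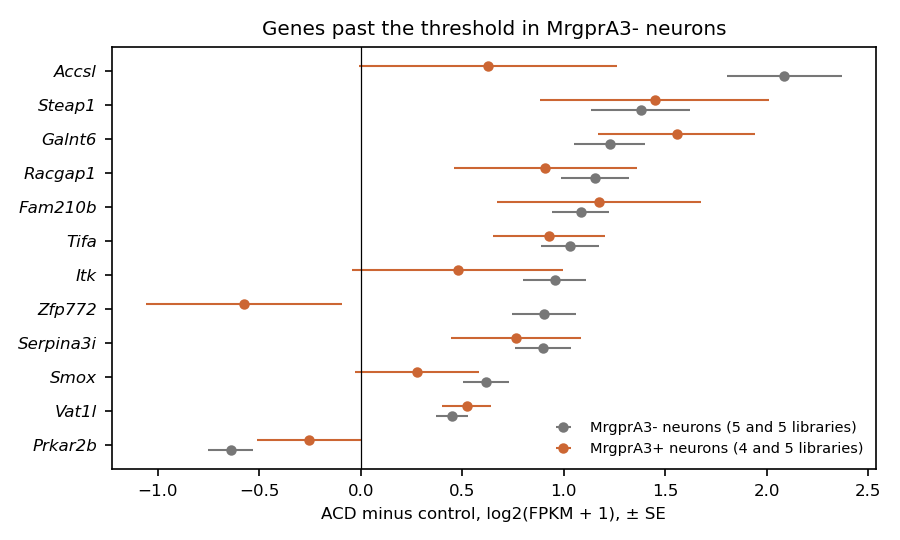
Difference of mean log2(FPKM + 1), ACD minus control, with SE, in MrgprA3- neurons (grey, 5 and 5 libraries) and MrgprA3+ neurons (orange, 4 and 5 libraries) for the 12 genes that passed the threshold in MrgprA3- neurons and were tested in both. The points of Tifa, Fam210b, Vat1l and Steap1 lie close together, Zfp772 lies on opposite sides of 0, and the errors are larger in MrgprA3+ neurons.

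Whether the effect differed between the populations was tested directly, as the difference of the differences over all 19 libraries. None of 11996 genes (0.0%) passed, the smallest adjusted p by limma was 1.0, and 459 genes (3.83%) had an unadjusted p under 0.05. Genes with small p-values in this test included Npl (MrgprA3+ minus MrgprA3- difference -1.72, unadjusted p 0.000362), Csad (-1.74, 0.000466), Sytl2 (1.49, 0.000822), Cryl1 (-1.14, 0.00123) and S100a16 (1.59, 0.00166). Sytl2, a synaptotagmin-like protein of vesicle traffic, read 0.31 to 3.96 FPKM in MrgprA3+ control and 3.14 to 9.82 FPKM in ACD libraries, against 36.4 FPKM in MrgprA3- control libraries. For Mrgpra3 the difference between populations was -0.24 with an unadjusted p of 0.409, and for Serpinb1a 0.69 with an unadjusted p of 0.056. At this threshold no gene was shown to respond differently in MrgprA3+ and MrgprA3- neurons.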

How the data were processed

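Polyadenylated RNA of sorted neurons was sequenced, per the labels' protocols, and aligned with Bowtie2 to mm9, per the submitters' processing notes. The sources used here do not name the version, the annotation or the quantification program. The authors deposited FPKM per gene and library, with no further scaling stated; they are not counts, so no count model was used. Depth was estimated from the spacing of low FPKM of 1068 genes of 300 to 900 bp and is approximate. Differences of mean log2(FPKM + 1) were fitted with limma 3.58.1 in R 4.3.3 (eBayes with trend and robust options), separately for MrgprA3+ (9 libraries) and MrgprA3- neurons and, with weights per population, for the difference of effects (19 libraries). P-values were two-sided and Benjamini-Hochberg adjusted over all tested genes, threshold 0.05; intervals are 95%. The method was tested on simulated data. Library measures used exact permutation.

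Genes were named by a rule: a fixed set, the smallest p-values and largest non-overlapping differences at 5 FPKM or more, and in each list the smallest p-values and highest levels. The comparison, lists and named genes were chosen with earlier results of these data known, so no list is independent support. Libraries of both populations share a mouse; deviations of same-mouse libraries correlated at -0.06 to 0.19. Alternatives were other pseudocounts, filters, scalings, weights, a replicate block and leaving out libraries. Coordinates other than those of the RefSeq promoters were not used, since the files refer to mm9. A few named genes are not reported here.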

Additional observations from a re-analysis of the deposited data

Results flagged for a closer look

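Of 206 groups of values looked at (the named genes in the 5 control and the 4 ACD libraries, and the library measures), 10 (4.85%) held a library far from the rest, close to the 1 in 20 that chance gives. In ACD replicate 4, 5 genes stood apart. Tubb6 read 1.19 FPKM there against 14.4 to 19.4 in the other ACD libraries, Bdnf 28.08 against 47.0 to 50.1, Trpv1 118.14 against 148 to 153, Gnao1 384.45 against 346 to 350.4, and Il13ra1 7.3 against 5.57 to 5.82. In ACD replicate 2, Ednrb read 0.28 FPKM against 2.67 to 3.26. In control libraries, Spp1 read 2.35 FPKM in replicate 3 against 0.05 to 0.2, Cxcl10 read 0.18 in replicate 4 and was listed at 0 in the others, Acat2 read 241.25 in replicate 5 against 154.5 to 168, and the summed NP1 markers stood at 815.7 FPKM in replicate 5 against 486 to 556. No gene passed the test of a difference between the populations, so none is listed for that reason.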

How the results depend on the processing

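The count of 0 called genes in MrgprA3+ neurons stayed 0 under both other filters, both rescalings, the smaller pseudocount and plain variance moderation. It was 1 with library weights, 42 in the fit to all 19 libraries (with 1642 genes at an unadjusted p under 0.05), and 0 to 1 when single libraries were left out (1 without control replicate 2). Groups without overlap numbered 302 to 433 without single libraries and 602 without both libraries numbered 2, since fewer libraries overlap less. Replicate numbers of ACD and control mice did not pair (correlations of -0.02 to 0.03). With the replicate block, which drops control replicate 3, 1 gene was called, Cpne6, and 309 groups did not overlap. It changed no other MrgprA3+ call. In MrgprA3- neurons, with alternatives chosen after seeing the data, the 13 called genes became 4 to 13 without single libraries (8 or fewer without control replicates 1 or 2 or ACD replicates 1, 2, 3 or 5), 2 with the replicate block and 6 with the smaller pseudocount. The test between populations gave 0 to 1 called gene without single libraries (1 without MrgprA3+ ACD replicate 5). Its replicate block by mouse gave 520 genes at an unadjusted p under 0.05. 86 named genes were compared: 72 kept their sign under every alternative, and 16 passed the threshold under at least 1, all of them in the fit to all 19 libraries. Without both libraries numbered 2, Atf3 had a difference of 0.23, Hrh1 -0.05, Mrgprx1 0.13, Nppb -0.047, Tac1 -0.062 and Zfp772 0.063. With library weights Atf3 had 0.15 and Penk 0.044, with the replicate block H2-D1 had -0.008, and with quantile normalization Ubb was at 0 to 3 decimals. Without single libraries Atf3 ranged from -0.17 to 0.23, B2m -0.22 to 0.23, F2rl2 -0.035 to 0.11, H2-D1 -0.008 to 0.14, Il4ra -0.10 to 0.12, Mrgprd -0.39 to 0.22, Mrgprx1 -0.15 to 0.073, Penk -1.01 to 0.33, Scn11a -0.067 to 0.035 and Tac1 -0.071 to 0.31. The cause of these shifts was not tested. At this depth 300 tested genes (2.83%) were listed at 0 in at least 1 of the 9 libraries, against 77 in at least 1 of the 10 MrgprA3- libraries.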

Other observations

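Genes of sterol synthesis and its regulation, which supply cholesterol to membranes, had 29 tested members in MrgprA3+ neurons. Of these 4 were higher in ACD at an unadjusted p under 0.05, against 3.03% over all genes, none passed adjustment in either direction, and the list's median difference was 0.07. Acat2, an acetyl-CoA acetyltransferase, read 158, 154.5, 158, 168 and 241 FPKM in control and 230.1, 226, 190.2 and 276 FPKM in ACD libraries. Control replicate 5 lay among the ACD values, and the difference was 0.40 with an adjusted p of 0.868 by limma. Stard4, a sterol carrier, averaged 8.40 FPKM in control and 16.5 in ACD libraries, a difference of 1.00. Among 43 tested genes of protein folding and oxidative stress 3 were higher and 5 lower at an unadjusted p under 0.05, against 3.03% and 2.53% over all genes. The chaperone partner Dnaja1 read 258, 245, 258, 207 and 278 FPKM in control and 313, 290.1, 286 and 323 FPKM in ACD libraries, without overlap, a difference of 0.29 with an adjusted p of 0.868.

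Ubb, a ubiquitin gene and one of the most abundant transcripts, averaged 15140 FPKM in control and 16230 in ACD libraries, with an interval of the difference of -0.05 to 0.24. Nefl, the light neurofilament, averaged 4430 FPKM (SD 695, n = 5) and 5256 FPKM (SD 619, n = 4), a difference of 0.25 with an adjusted p of 0.868. At the other end, Penk, the precursor of the enkephalins, was among the genes that varied most between control mice. It read 0.22, 0.39, 7.12, 48.9 and 13.6 FPKM in control and 10.1, 2.07, 3.18 and 2.48 FPKM in ACD libraries, so that its interval of -2.60 to 1.77 excluded little.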
